A study of Mus musculus with 6 samples.

Results

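The genes described here are those of branched-chain amino acid degradation in mouse Achilles tendon tissue. They are the 55 genes, of 21878 in the count table, whose pathway annotation in that table holds the term for valine, leucine and isoleucine degradation. That term was found in 56 genes, of which Hmgcs1, an enzyme of sterol synthesis, was left out. RNA was measured in 6 libraries: 3 from tendons labelled as amputated and 3 from sham-operated tendons. They are called amputation 1 to 3 (titled HO1 to HO3) and sham 1 to 3 (titled Control1 to Control3). Both groups are mouse Achilles tendon, and the labels used here name no strain, age, sex, time after surgery or pooling. They do not tell whether each library is from its own animal. The p-values therefore rest on the spread among these 6 libraries alone, which may be technical.

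Leucine, isoleucine and valine lose their amino group to a branched-chain aminotransferase, and the keto acids left over are committed to breakdown by the branched-chain keto acid dehydrogenase complex in mitochondria. Later steps resemble the oxidation of fatty acids and share several enzymes with it, and they end in acetyl-CoA, acetoacetate or succinyl-CoA. Skeletal muscle is a main site of the transamination step, and adipose tissue also takes up and breaks down these amino acids.

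Libraries held between 23916839 and 31346730 counts. The tendon markers Tnmd, Scx, Mkx, Fmod and Col1a1 were present in every library, with Tnmd, a tendon membrane protein, at 448, 685 and 304 FPKM in amputation 1 to 3, against 56.1, 49.2 and 30.1 FPKM in sham 1 to 3. A list of 10 tendon genes took 12.4%, 15.4% and 6.04% of the counts in amputation 1 to 3, against 1.94%, 1.69% and 0.765% in sham 1 to 3. Other tissues were present too. A list of 30 skeletal muscle genes took 1.64%, 0.512% and 15.9% of the counts in amputation 1 to 3, against 20.1%, 19.6% and 21.7% in sham 1 to 3. A list of 10 adipocyte genes took 0.0592%, 0.0289% and 0.0505% of the counts in amputation 1 to 3, against 0.139%, 0.184% and 0.211% in sham 1 to 3. In summed share, amputation 3 therefore stood near the sham libraries in muscle genes and with amputation 1 and 2 in adipocyte genes. Single muscle genes were split in amputation 3, where 16 of the 30 were below every sham library. There, Mb and Myh7 were at log2 ratios of -1.15 and -0.96 to the sham mean, and Myh4 and Pvalb at 0.95 and 1.35. Of 9 cartilage genes in the table, all were called higher after amputation. So were 9 of 10 macrophage genes and 6 of 10 tendon genes, beside 20.4% of all genes tested. All 30 skeletal muscle genes had negative log2 fold changes, but 0 were called, beside 12.3% of all genes called lower. No gene of these marker lists was at 0 in all libraries.

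Most genes of the pathway had less RNA in amputated than in sham tendon. Of the 55, 46 had enough counts to be tested, and 24 were lower and 1 was higher after amputation in edgeR's quasi-likelihood test at an adjusted p under 0.05. Among all 14561 genes tested, 12.3% were called lower and 20.4% higher by the same rule. The median log2 fold change of the 46 was -0.996, beside -0.02 for all genes, and 40 of the 46 were negative. In 36 of them every amputation library lay below every sham library, which held for 26.1% of all genes. In 3 of them, Bcat1, Aldh7a1 and Aldh9a1, every amputation library lay above every sham library, which held for 28.7% of all genes. Together the 55 genes took 0.155%, 0.133% and 0.268% of the counts in amputation 1 to 3, against 0.387%, 0.421% and 0.448% in sham 1 to 3.

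The size of the difference was not the same in the 3 amputation libraries. The median log2 ratio of the 46 genes to the sham mean was -1.25 in amputation 1, -1.39 in amputation 2 and -0.43 in amputation 3, and 41 of the 46 were nearer to 0 in amputation 3 than in both others. The share of all genes with that trait was not counted. Over all genes, amputation 3 was also nearest to sham, at a chi-square per gene of 259 to 305. Amputation 1 and 2 were at 850 to 1355. The muscle list followed the order of the pathway medians, at -3.54, -4.83 and -0.22. The adipocyte list did not, with medians of -1.77, -2.63 and -1.87. In amputation 3, 36 of the 46 genes were below the lowest sham library, against 36.2% of all genes. Of the 30 muscle genes, 16 were below it too. These are 78.3% of the pathway genes and 53.3% of the muscle genes, and the difference was not tested. All 10 adipocyte genes were called lower after amputation, beside 12.3% of all genes, and their part in the result was not tested. In bulk tissue, fewer cells of a type and less RNA per cell cannot be told apart.

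**Figure D1:**
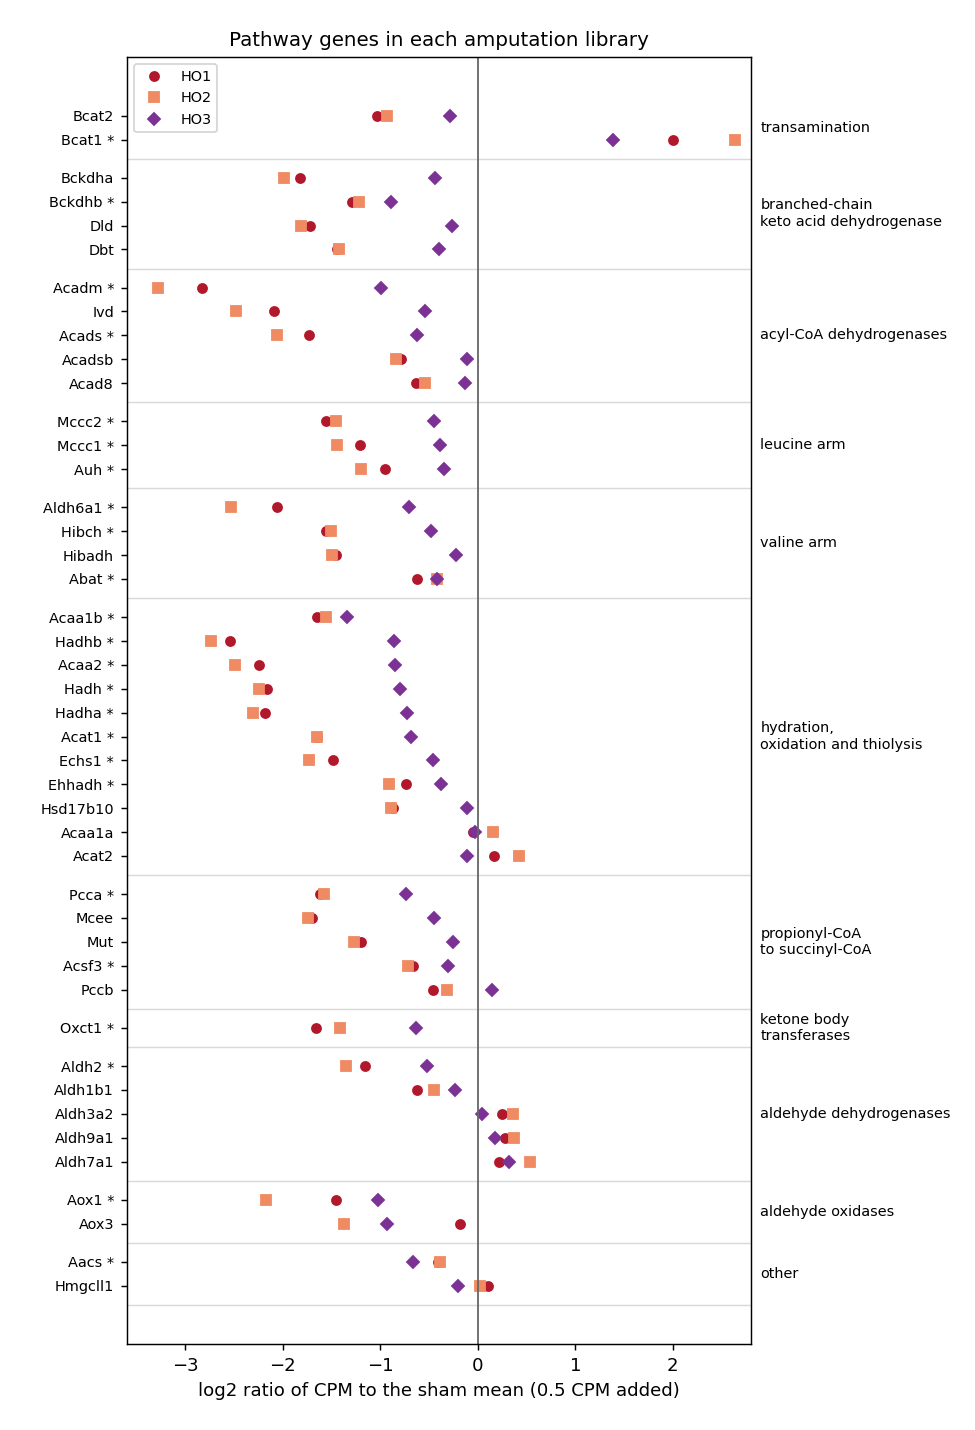
Each row is a tested gene of the pathway that is reported here. The horizontal axis is its log2 CPM in an amputation library (HO1 to HO3) minus the mean log2 CPM of the 3 sham libraries. In each library 0.5 CPM was added before the log2. Asterisks mark genes called by edgeR. Most genes lie left of 0 in all 3 amputation libraries, HO3 is mostly the point nearest to 0, and Bcat1 lies far to the right.

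**Figure D2:**
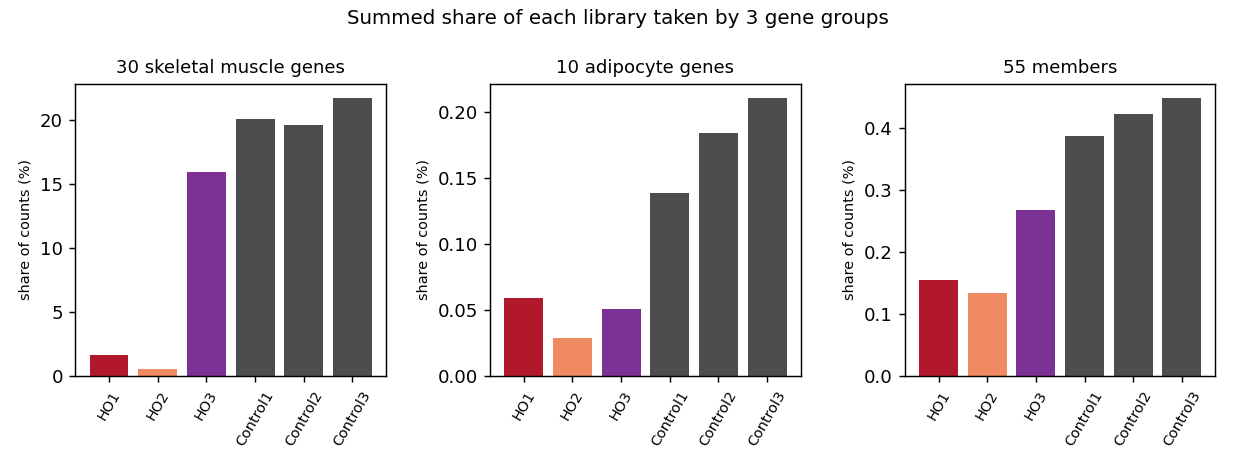
Bars give the percentage of each library's counts taken by the 30 skeletal muscle genes, the 10 adipocyte genes and the 55 pathway genes, with a separate vertical axis for each panel. HO3 reaches 15.9% in muscle genes but 0.0505% in adipocyte genes, and its 0.268% in pathway genes lies between the other amputation libraries and the sham libraries.

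The number of calls changed with the libraries kept, both in the pathway and over all genes. Without amputation 3, 37 pathway genes were lower and 3 higher, beside 29.9% and 28.6% of all genes. Without amputation 1, 5 were lower (4.77% of all genes), and without amputation 2, 6 were lower (6.18%). Without sham 1, 2 or 3, the lower genes numbered 5, 3 and 4, beside 4.65%, 3.06% and 5.45% of all genes. With the replicate number as a block, 35 were lower and 2 higher, beside 17.3% and 21.7% of all genes. The labels do not state that same-numbered libraries are pairs. The summed muscle list, as log2 CPM, was 13.9, 12.4 and 17.4 in amputation 1 to 3, against 17.6, 17.6 and 17.8 in sham 1 to 3. As a covariate it is nearly tied to group, and the group difference then rests largely on amputation 3 against sham. Muscle content and amputation cannot be told apart by such a fit. When this covariate entered the fit, 10 were lower, beside 5.14% of all genes. Among the 10 were Aacs, Acaa2, Acadm, Acat1, Aldh6a1, Aox1, Bckdhb, Hadh and Hadhb. The calls of Bckdhb and Acaa1b held whichever library was left out.

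The transaminases parted in direction. Bcat1, the cytosolic branched-chain aminotransferase (chr6:144993835-145076157, GRCm38.p6), had 36.7, 57.0 and 23.7 CPM (counts scaled to library size, here with TMM factors) in amputation 1 to 3, against 13.8, 10.4 and 4.58 CPM in sham 1 to 3. The lowest amputation library, amputation 3, was above the highest sham library. Bcat1 rose 4.08-fold, by 2.03 ± 0.48 on the log2 scale (± SE here and below), with an adjusted p of 0.0228 in edgeR's quasi-likelihood test. With any library left out, its log2 fold change ran from 1.66 to 2.38, and it was called only without amputation 3 or without sham 1. With the muscle covariate it was 1.17 and was not called (edgeR, adjusted p = 0.107). The log2 ratios of Bcat1 to the sham mean were 2.01, 2.64 and 1.39 in amputation 1 to 3. Medians of the tendon list had the same order, at 1.59, 2.36 and 1.10. The part of tendon content in the rise of Bcat1 was not tested.

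Bcat2, the mitochondrial enzyme of the same step (chr7:45568967-45589710), had 19.2, 20.6 and 32.6 CPM in amputation 1 to 3, against 33.7, 41.4 and 45.3 CPM in sham 1 to 3. The groups did not overlap, but amputation 3 came close to sham 1. The log2 difference of -0.73 ± 0.23 was not called (edgeR, adjusted p = 0.0541). With the replicate number as a block it was -0.76 and was called (edgeR, adjusted p = 0.022). On the FPKM scale, which takes account of transcript length, Bcat1 stood at 0.678, 0.982 and 0.259 of Bcat2 in amputation 1 to 3, against 0.146, 0.0894 and 0.0359 in sham 1 to 3. Bcat2 thus had the higher FPKM in all 6 libraries, and in amputation 2 the levels were nearly equal.

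All 4 subunit genes of the branched-chain keto acid dehydrogenase complex had lower values in every amputation library than in any sham library. Such a gap held for 26.1% of all genes, and of these 4 only Bckdhb was called. Bckdhb (chr9:83925111-84124240) codes for the beta subunit of the E1 decarboxylase. It had 12.4, 13.1 and 16.6 CPM in amputation 1 to 3, against 31.9, 29.6 and 31.6 CPM in sham 1 to 3, with little spread in either group. It fell by 1.15 ± 0.14 on the log2 scale (edgeR, adjusted p = 0.00499), and with any library left out the log2 fold change ran from -1.29 to -1.07.

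Bckdha (chr7:25629852-25658782), the alpha subunit of E1, had 23.3, 20.8 and 61.7 CPM in amputation 1 to 3, against 72.7, 87.8 and 92.7 CPM in sham 1 to 3. Dbt (chr3:116513070-116549981), the E2 transacylase core, had 14.1, 14.2 and 29.7 CPM in amputation 1 to 3, against 34.8, 37.1 and 46.4 CPM in sham 1 to 3. Dld (chr12:31331562-31351471), the E3 dihydrolipoamide dehydrogenase that other mitochondrial complexes also use, had 55.1, 51.4 and 152 CPM in amputation 1 to 3, against 156, 173 and 224 CPM in sham 1 to 3. In each of these, amputation 3 stood apart from amputation 1 and 2 and close to sham 1. Log2 fold changes of -1.26 ± 0.43, -1.03 ± 0.32 and -1.10 ± 0.45 in Bckdha, Dbt and Dld were not called (edgeR, adjusted p = 0.0643, 0.0501 and 0.101). With the replicate block they were -1.44, -1.11 and -1.27, and all were called (edgeR, adjusted p = 0.034, 0.020 and 0.031).

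**Figure D3:**
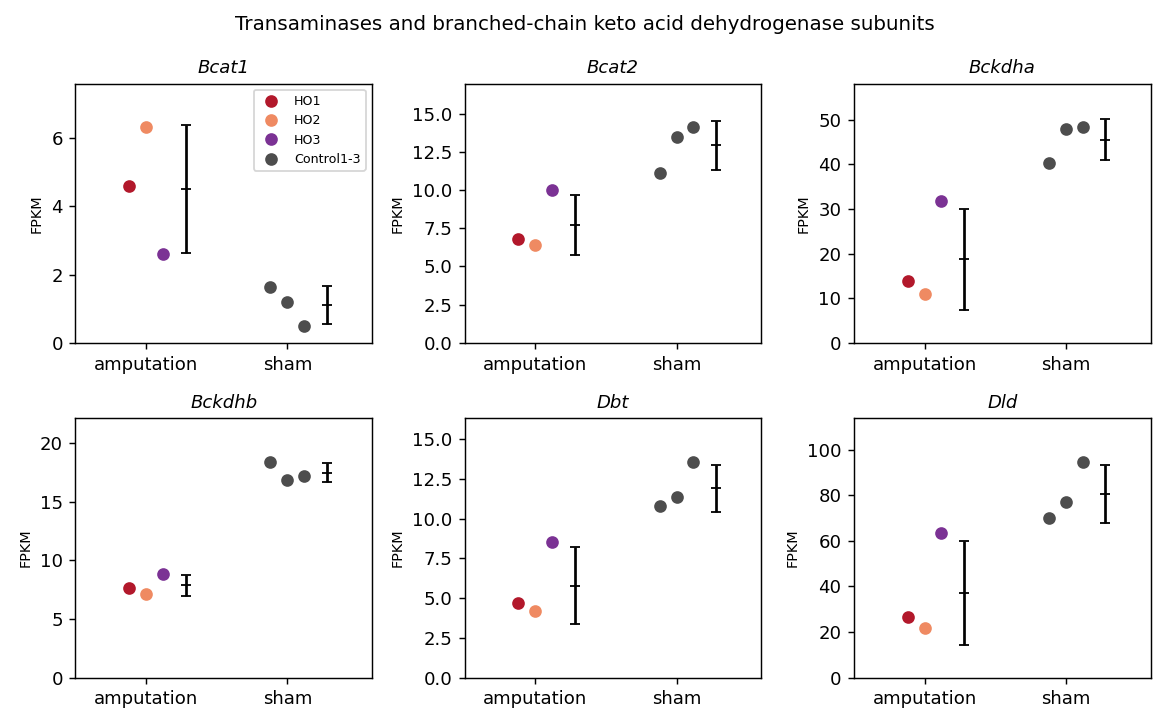
Points give the FPKM of each library for Bcat1, Bcat2 and the 4 dehydrogenase subunit genes, with amputation (HO1 to HO3) left of sham (Control1 to Control3). Bars give the mean ± SD of each group (n = 3). Bckdhb keeps all 3 amputation libraries close together, while in Bckdha, Dbt and Dld HO3 lies between the other amputation libraries and the sham libraries.

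The acyl-CoA dehydrogenases, which make the first double bond in the shortened chains, all had negative log2 fold changes. Acadm, the medium-chain enzyme of fatty acid oxidation, had 54.2, 39.4 and 194 CPM in amputation 1 to 3, against 348, 393 and 424 CPM in sham 1 to 3. Acads, the short-chain enzyme, had 16.2, 12.8 and 35.5 CPM in amputation 1 to 3, against 47.7, 57.4 and 60.4 CPM in sham 1 to 3. In both, all 3 amputation libraries were below the sham range, and amputation 3 was the highest of them. Both fell, with log2 fold changes of -2.02 ± 0.61 in Acadm and -1.36 ± 0.38 in Acads (edgeR, adjusted p = 0.046 and 0.038). The 3 dehydrogenases that are specific to the branched chains were not called. Ivd, which acts on the leucine product isovaleryl-CoA, had 32.6, 24.9 and 96.7 CPM in amputation 1 to 3, against 125, 145 and 154 CPM in sham 1 to 3, a log2 difference of -1.46 ± 0.51 (edgeR, adjusted p = 0.068). Acad8, for valine, and Acadsb, for isoleucine, differed by -0.43 ± 0.17 and -0.55 ± 0.23 (edgeR, adjusted p = 0.0958 and 0.11). With the replicate block, Ivd, Acad8 and Acadsb were at -1.72, -0.45 and -0.58 and were called (edgeR, adjusted p = 0.036, 0.037 and 0.045).

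In the leucine arm, Mccc2, Mccc1 and Auh were lower after amputation. Methylcrotonyl-CoA carboxylase, the biotin enzyme of the leucine arm, is built from the products of Mccc1 and Mccc2. Mccc2 had 10.4, 11.2 and 22.9 CPM in amputation 1 to 3, against 32.1, 29.6 and 33.1 CPM in sham 1 to 3. Mccc1 had 17.9, 15.05 and 32.0 CPM in amputation 1 to 3, against 37.7, 41.5 and 46.8 CPM in sham 1 to 3. Auh, the hydratase that follows, had 20.8, 17.5 and 32.0 CPM in amputation 1 to 3, against 37.3, 42.6 and 42.4 CPM in sham 1 to 3. No amputation library of these 3 genes reached the sham range, and all fell, with log2 fold changes of -1.09 ± 0.31, -0.96 ± 0.29 and -0.80 ± 0.23 (edgeR, adjusted p = 0.040, 0.0465 and 0.0417).

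In the valine arm, 3 of the 4 tested genes were lower, beside 12.3% of all genes. Aldh6a1, the methylmalonate semialdehyde dehydrogenase, had 45.0, 32.4 and 116 CPM in amputation 1 to 3, against 170, 184 and 216 CPM in sham 1 to 3. Hibch, the hydrolase for 3-hydroxyisobutyryl-CoA, had 12.8, 13.3 and 27.5 CPM in amputation 1 to 3, against 34.8, 36.6 and 45.1 CPM in sham 1 to 3. Abat, the aminotransferase best known for breaking down GABA, had 16.9, 19.5 and 19.5 CPM in amputation 1 to 3, against 27.2, 25.1 and 26.5 CPM in sham 1 to 3. In Abat amputation 3 equalled amputation 2, whereas in Aldh6a1 and Hibch it lay well above both other amputation libraries. Aldh6a1, Hibch and Abat fell, with log2 fold changes of -1.56 ± 0.47, -1.12 ± 0.32 and -0.50 ± 0.11 (edgeR, adjusted p = 0.0467, 0.0397 and 0.0205). Hibadh, the dehydrogenase between Hibch and Aldh6a1, was at -0.95 ± 0.37 and not called (edgeR, adjusted p = 0.0924), and at -1.07 with the replicate block, where it was called (edgeR, adjusted p = 0.029).

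Hydration, oxidation and thiolysis, the steps the pathway shares most with fatty acid oxidation, held 11 genes. Of these, 8 were lower (72.7%), beside 12.3% of all genes. The mitochondrial trifunctional protein is built from Hadha and Hadhb. Hadha had 110, 100 and 300 CPM in amputation 1 to 3, against 452, 491 and 558 CPM in sham 1 to 3. Hadhb had 54.5, 47.4 and 177 CPM in amputation 1 to 3, against 292, 308 and 363 CPM in sham 1 to 3. All amputation libraries were below the sham range in both genes, amputation 3 being the nearest to it, and both fell, with log2 fold changes of -1.56 ± 0.46 in Hadha and -1.79 ± 0.53 in Hadhb (edgeR, adjusted p = 0.0423 and 0.043).

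Acat1, the mitochondrial acetoacetyl-CoA thiolase that ends isoleucine breakdown, had 64.1, 64.1 and 126 CPM in amputation 1 to 3, against 186, 199 and 222 CPM in sham 1 to 3. It fell by 1.26 ± 0.30 on the log2 scale (edgeR, adjusted p = 0.0228). Acat2, its cytosolic counterpart, had 10.1, 12.1 and 8.22 CPM in amputation 1 to 3, against 7.64, 9.08 and 10.1 CPM in sham 1 to 3. The groups of Acat2 overlapped, and its log2 difference of 0.18 ± 0.20 was not called (edgeR, adjusted p = 0.495).

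Of the remaining mitochondrial enzymes of these steps, Hadh, Acaa2 and Echs1 were lower and Hsd17b10 was not called. Hadh, the hydroxyacyl-CoA dehydrogenase, had 39.2, 37.0 and 102 CPM in amputation 1 to 3, against 157, 181 and 196 CPM in sham 1 to 3. Acaa2, a thiolase, had 30.2, 25.4 and 80.3 CPM in amputation 1 to 3, against 126, 157 and 153 CPM in sham 1 to 3. Echs1, the short-chain enoyl-CoA hydratase, had 27.1, 22.7 and 55.6 CPM in amputation 1 to 3, against 66.4, 82.1 and 82.0 CPM in sham 1 to 3. All 3 genes were lowest in amputation 2 and nearest to sham in amputation 3. Hadh, Acaa2 and Echs1 fell, with log2 fold changes of -1.58 ± 0.42, -1.68 ± 0.45 and -1.13 ± 0.35 (edgeR, adjusted p = 0.0315, 0.0328 and 0.048). Hsd17b10, a mitochondrial dehydrogenase that acts in isoleucine breakdown and is also a part of mitochondrial RNase P, had overlapping groups and was at -0.59 ± 0.24 (edgeR, adjusted p = 0.10). The replicate block put it at -0.63 and called it (edgeR, adjusted p = 0.042).

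The peroxisomal members differed among themselves. Acaa1b, a peroxisomal thiolase, had the most negative log2 fold change of the 46 but few reads: 2, 3 and 6 counts in amputation 1 to 3, against 33, 21 and 48 counts in sham 1 to 3. Its log2 fold change was -3.40 ± 0.54 (edgeR, adjusted p = 0.00782). Acaa1a, its close paralog, had 26.3, 30.2 and 26.6 CPM in amputation 1 to 3, against 25.3, 29.1 and 27.0 CPM in sham 1 to 3. Acaa1a overlapped between the groups and had a log2 difference of 0.03 ± 0.12 (edgeR, adjusted p = 0.856), and reads that fit both copies may have been split between them. Ehhadh, the peroxisomal bifunctional enzyme, had 6.61, 5.80 and 8.62 CPM in amputation 1 to 3, against 10.05, 12.4 and 11.7 CPM in sham 1 to 3. It fell by 0.70 ± 0.19 on the log2 scale (edgeR, adjusted p = 0.0366).

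Propionyl-CoA, an end product of isoleucine and valine, is carboxylated by an enzyme of alpha and beta subunits, and the genes of these subunits differed in how far they moved. Pcca (chr14:122484365-122889944), which codes for the biotin-carrying alpha subunit, had 16.2, 16.7 and 30.3 CPM in amputation 1 to 3, against 44.9, 47.6 and 61.0 CPM in sham 1 to 3. Every amputation library was below every sham library. Pcca fell by 1.28 ± 0.28 on the log2 scale (edgeR, adjusted p = 0.0183). Pccb (chr9:100982032-101034940), the beta subunit, had 48.1, 53.0 and 73.3 CPM in amputation 1 to 3, against 61.7, 63.4 and 74.1 CPM in sham 1 to 3. Its groups overlapped through amputation 3, and the log2 difference of -0.19 ± 0.19 was not called (edgeR, adjusted p = 0.438). Pcca stood at 0.0705, 0.0658 and 0.0862 of Pccb on the FPKM scale in amputation 1 to 3, against 0.152, 0.157 and 0.172 in sham 1 to 3, a ratio that amputation 3 shared with amputation 1 and 2.

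The sequences before the starts of Pcca and Pccb are shown because these genes code for partners in a single enzyme and moved by different amounts. Each runs from 250 to 57 bases before a transcript start in RefSeq on GRCm38.p6, read 5′ to 3′ on the gene's strand. Pcca lies at chr14:122534078-122534271 on the plus strand, before the second of the starts that RefSeq lists for it, and Pccb at chr9:101034941-101035134 on the minus strand. Capitals mark a match to the element of nuclear respiratory factor 1, searched as GCGCA and GCGC with any base between them, on both strands.
Pcca: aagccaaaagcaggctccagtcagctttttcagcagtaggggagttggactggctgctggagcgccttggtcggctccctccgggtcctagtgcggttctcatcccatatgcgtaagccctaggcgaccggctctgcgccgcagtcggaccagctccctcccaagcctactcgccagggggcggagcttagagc
Pccb: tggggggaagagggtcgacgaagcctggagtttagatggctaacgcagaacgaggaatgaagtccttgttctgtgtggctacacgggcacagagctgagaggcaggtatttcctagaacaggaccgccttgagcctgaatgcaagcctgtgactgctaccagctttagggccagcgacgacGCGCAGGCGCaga
The Pccb stretch holds the match and the Pcca stretch holds none. A match is a description of the letters and was not tied to the levels by any test.

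RefSeq gave promoters for 46 of the 55 genes, 52 in all, of which the 250 bases before the start were searched. The nuclear respiratory factor 1 element was found in 4 of them (7.69%), against 3.74% of all 32851 RefSeq promoters. Of the 22 promoters of genes called lower, 1 held it (4.55%). The element of the oestrogen-related receptors (TNAAGGTCA) was found in 0 of the 52, against 1.14% of all promoters, and that of PPAR with RXR (a pair of AGGTCA letters with any base between them) in 0, against 0.0335%. The E-box CACGTG and the ETS element CCGGAAG were each found in 3 of the 52 (5.77%), against 6.02% and 6.91% of all promoters. The nuclear respiratory factor 1, E-box and ETS letters were chosen after the expression values were seen. The receptor elements share the letters AGGTCA, each motif was searched on its own on both strands, and the counts cover this window only.

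Acsf3, a ligase for methylmalonate and malonate, was the other called gene of the propionyl-CoA steps. It had 9.99, 9.58 and 12.9 CPM in amputation 1 to 3, against 17.0, 15.7 and 15.6 CPM in sham 1 to 3. These groups did not overlap, and it fell by 0.57 ± 0.16 on the log2 scale (edgeR, adjusted p = 0.0352). Mcee, the epimerase, and Mut, the vitamin B12-dependent mutase that yields succinyl-CoA, were at -1.22 ± 0.39 and -0.84 ± 0.30 and were not called (edgeR, adjusted p = 0.0549 and 0.0703). Blocked by replicate number they were at -1.35 and -0.92, and both were called (edgeR, adjusted p = 0.024 and 0.027).

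Oxct1, the transferase that lets tissues use ketone bodies, had 142, 168 and 289 CPM in amputation 1 to 3, against 385, 440 and 534 CPM in sham 1 to 3. It fell by 1.18 ± 0.31 on the log2 scale, with no overlap between the groups (edgeR, adjusted p = 0.0322). Aacs, the cytosolic acetoacetyl-CoA synthetase, had 25.1, 25.6 and 21.1 CPM in amputation 1 to 3, against 32.6, 39.2 and 29.7 CPM in sham 1 to 3. Its order over the libraries was unlike that of most members, since amputation 3 was the farthest from sham. Aacs fell by 0.50 ± 0.15 on the log2 scale (edgeR, adjusted p = 0.0445). The call was lost with DESeq2 size factors or upper quartile scaling (edgeR, adjusted p = 0.0504 and 0.083) and on the FPKM scales. Hmgcll1, a lyase outside mitochondria, was at -0.07 ± 0.30 with overlapping groups (edgeR, adjusted p = 0.867).

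Aldehyde dehydrogenases and oxidases enter the pathway list through the aldehyde steps of valine breakdown, and most of them act on many aldehydes. Aldh2, the mitochondrial enzyme that also clears acetaldehyde, had 80.7, 70.5 and 126 CPM in amputation 1 to 3, against 162, 189 and 194 CPM in sham 1 to 3. Aox1, a molybdenum-containing aldehyde oxidase on chromosome 1, had 29.7, 17.9 and 40.4 CPM in amputation 1 to 3, against 88.5, 82.5 and 76.98 CPM in sham 1 to 3. Amputation 3 was below the sham libraries in both genes, and amputation 2 was the lowest library in both. Aldh2 and Aox1 fell, with log2 fold changes of -0.97 ± 0.24 and -1.49 ± 0.29 (edgeR, adjusted p = 0.0272 and 0.0131). Aox1 kept its call in 5 of the 6 fits that left out a library.

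The other aldehyde dehydrogenases were not called, and 3 of the 4 had positive log2 differences. Aldh7a1, which acts in lysine breakdown, had 41.5, 51.6 and 44.5 CPM in amputation 1 to 3, against 34.9, 37.4 and 34.2 CPM in sham 1 to 3. All amputation libraries were above the sham libraries, by a log2 difference of 0.37 ± 0.12 that was not called (edgeR, adjusted p = 0.0609). In the fit with the replicate block it was 0.36 and was called (edgeR, adjusted p = 0.047). Aldh9a1, linked to carnitine synthesis, and Aldh3a2, the fatty aldehyde dehydrogenase, were at 0.28 ± 0.12 and 0.23 ± 0.12, and Aldh1b1, a mitochondrial enzyme, at -0.54 ± 0.24, none of them called (edgeR, adjusted p = 0.121, 0.184 and 0.12). Aox3, a neighbour of Aox1 in the same gene family, was at -1.02 ± 0.48 and was not called (edgeR, adjusted p = 0.139).

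For 9 of the 55 genes the counts were too few for a test. They were Aox2, Aox4, Oxct2a, Oxct2b, Agxt2, Il4i1, Lao1, Gm21948 and 4930438A08Rik, and none of them exceeded 21 counts in any library. Oxct2b had no count in any library. Aox4 had 9, 13 and 17 counts in amputation 1 to 3, against 0, 0 and 3 counts in sham 1 to 3, and it was called higher where no filter on low counts was used. Agxt2 had no count in amputation 1 to 3, against 5, 0 and 0 counts in sham 1 to 3.

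Lower calls fell both on genes shared with fatty acid breakdown and on the rest. Of the 55, 18 also carried the annotation for fatty acid degradation, and 11 of these were lower, with a median log2 fold change of -1.05. Of the 28 tested genes without that annotation, 13 were lower and 1 was higher, with a median of -0.99. The lower genes are 61.1% with the annotation and 46.4% without it, beside 12.3% of all genes. In amputation 1, 2 and 3 the medians of the log2 ratio to sham were -1.32, -1.46 and -0.49 with the annotation, and -1.25, -1.39 and -0.41 without it. The difference between these subsets was not tested.

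Levels of different genes can be set side by side only per length, so FPKM was used. Acadm averaged 45.5 ± 38.3 FPKM after amputation and 188 ± 13.5 FPKM after sham surgery (SD, n = 3 each), the highest level of the 55 in sham tendon. Oxct1 averaged 56.7 ± 19.3 FPKM after amputation and 130 ± 17.4 FPKM after sham surgery, the highest level of the 55 in amputated tendon. Hadha averaged 43.6 ± 26.9 FPKM after amputation and 130 ± 9.96 FPKM after sham surgery. In sham tendon Hadha and Oxct1 did not differ beyond their spread, and in amputated tendon neither did Oxct1, Acadm and Hadha. Bcat1 averaged 4.50 ± 1.87 FPKM after amputation and 1.11 ± 0.56 FPKM after sham surgery, and stood at rank 36 of 55 after amputation and rank 42 after sham surgery. Bcat1 was thus low among these genes in both groups.

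Ratios within a library between partner genes were formed for 7 pairs chosen after the values were seen, and no test was made on them. The groups did not overlap in 4 of the pairs, which include Bcat1 over Bcat2 and Pcca over Pccb above. Hadha stood at 2.82, 2.96 and 2.39 times Hadhb on the FPKM scale in amputation 1 to 3, against 2.17, 2.23 and 2.16 times in sham 1 to 3. Acat1 stood at 3.92, 3.26 and 9.41 times Acat2 in amputation 1 to 3, against 14.96, 13.5 and 13.5 times in sham 1 to 3. In Acat1 over Acat2, amputation 3 lay between the other amputation libraries and the sham libraries. Bckdha over Bckdhb, Dbt over Bckdhb and Mccc1 over Mccc2 overlapped between the groups.

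**Figure D4:**
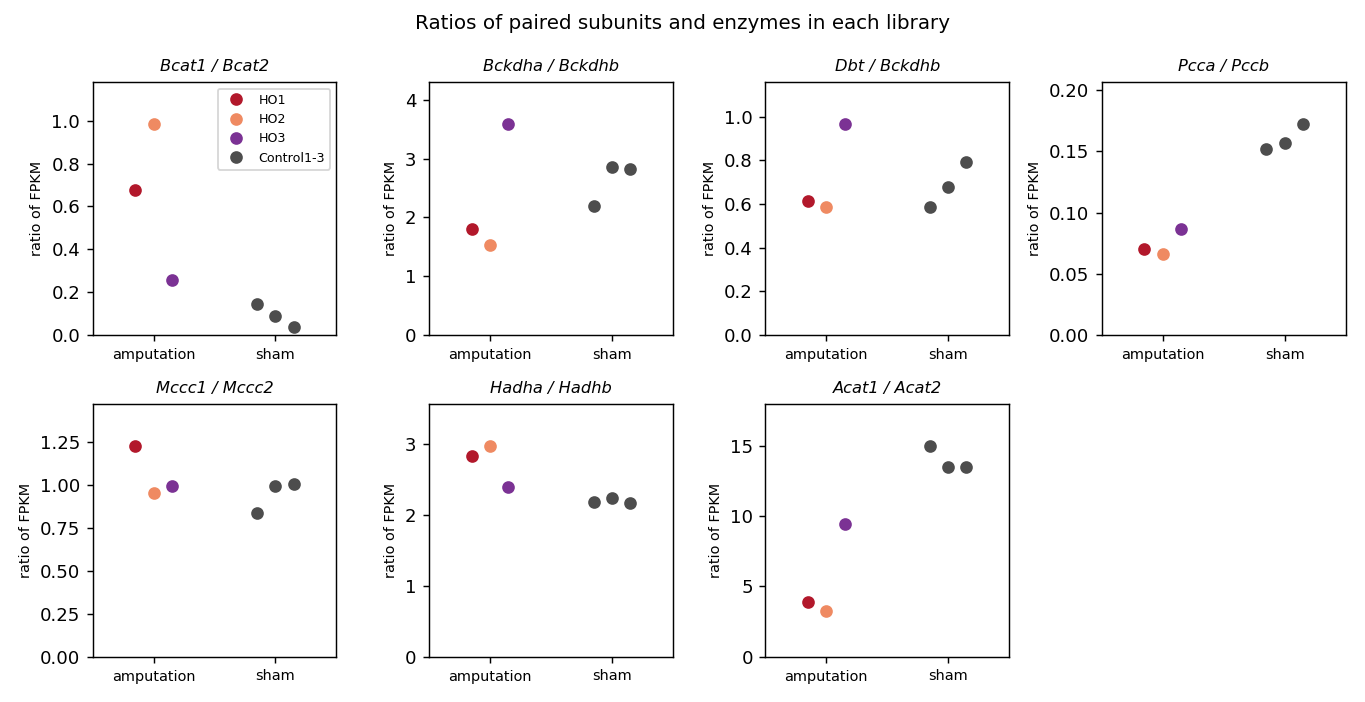
Points give the ratio of the FPKM values of 2 genes in each library for 7 pairs, with amputation (HO1 to HO3) left of sham (Control1 to Control3). The groups are apart in 4 panels, and in Pcca over Pccb the 3 amputation libraries lie close together at 0.0658 to 0.0862.

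A list of 12 genes for the transport of branched-chain amino acids and the control of their breakdown held 4 lower and 2 higher genes. These are 33.3% and 16.7% of the list, beside 12.3% and 20.4% of all genes. Slc7a5, the light chain of the L-type amino acid transporter at the cell surface, had 35.6, 48.4 and 21.6 CPM in amputation 1 to 3, against 15.4, 13.8 and 12.3 CPM in sham 1 to 3. Like Bcat1, Slc7a5 was highest in amputation 2 and lowest of the amputation libraries in amputation 3. Median log2 ratios of the tendon and cartilage lists had that order too, and those of the macrophage list did not. Slc7a5 rose by 1.35 ± 0.29 on the log2 scale, and Sesn2, a leucine sensor, rose by 0.69 ± 0.21 (edgeR, adjusted p = 0.0177 and 0.0477). Sesn2 was called in only 4 of the 11 alternatives that kept all libraries and lost its call, for example, with DESeq2 size factors (edgeR, adjusted p = 0.0543). Slc3a2, the heavy chain that pairs with Slc7a5, was at 0.70 ± 0.23 and was not called (edgeR, adjusted p = 0.0609). Slc43a2, another transporter for these amino acids, and Slc25a44, their mitochondrial carrier, fell, with log2 fold changes of -0.47 ± 0.12 and -0.51 ± 0.15 (edgeR, adjusted p = 0.0277 and 0.0425).

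Transcriptional regulators of oxidative metabolism in that list moved the most. Ppargc1a, a coactivator of mitochondrial genes, had 8.57, 4.15 and 27.8 CPM in amputation 1 to 3, against 82.2, 143 and 125 CPM in sham 1 to 3. Ppara, a nuclear receptor for fatty acids, had 4.64, 1.65 and 22.6 CPM in amputation 1 to 3, against 71.6, 93.1 and 118 CPM in sham 1 to 3. Amputation 3 was below the sham libraries in both, and several times above amputation 1 and 2. Ppargc1a and Ppara fell, with log2 fold changes of -3.11 ± 0.70 and -3.29 ± 0.91 (edgeR, adjusted p = 0.0204 and 0.0362). With any library left out, Ppargc1a ran from -4.20 to -2.70 and was called in 3 of 6 fits, and Ppara ran from -4.90 to -2.81 and was called in 2 of 6. With the muscle covariate they were at -1.88 and -1.78, and both were called (edgeR, adjusted p = 0.00737 and 0.00464). That fit rests largely on amputation 3 against sham and does not separate muscle content from amputation. Klf15, a transcription factor that acts on this pathway in muscle, and Ppm1k, the phosphatase that switches the keto acid dehydrogenase on, were at -2.10 ± 0.78 and -1.37 ± 0.46 and were not called (edgeR, adjusted p = 0.0811 and 0.0607). With the replicate block they were at -2.68 and -1.59, and both were called (edgeR, adjusted p = 0.0475 and 0.0396). Bckdk, the kinase that switches the complex off, had overlapping groups and was at -0.75 ± 0.38 (edgeR, adjusted p = 0.169).

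Among 13 genes for the cofactors and electron acceptors of the pathway, 4 were lower and 1 was higher. These are 30.8% and 7.69% of the list, beside 12.3% and 20.4% of all genes. Etfdh and Etfa, which pass electrons from the acyl-CoA dehydrogenases to the respiratory chain, fell, with log2 fold changes of -1.70 ± 0.42 and -1.28 ± 0.30 (edgeR, adjusted p = 0.0262 and 0.0218). Etfdh had 38.8, 35.6 and 99.9 CPM in amputation 1 to 3, against 166, 194 and 206 CPM in sham 1 to 3. Mmaa, which serves the vitamin B12 mutase, fell by 0.86 ± 0.20, and Hlcs, which attaches biotin to carboxylases, fell by 0.44 ± 0.13 on the log2 scale (edgeR, adjusted p = 0.0217 and 0.0411). Btd, which recycles biotin, had 18.7, 20.4 and 15.6 CPM in amputation 1 to 3, against 11.4, 12.5 and 11.1 CPM in sham 1 to 3. It rose by 0.64 ± 0.14 on the log2 scale (edgeR, adjusted p = 0.0196), so the biotin-attaching and the biotin-recycling gene had opposite signs. Etfb and Mmachc were not called at -1.37 ± 0.49 and -1.31 ± 0.50 (edgeR, adjusted p = 0.0725 and 0.0844). Blocked by replicate number they were at -1.61 and -1.54 and were called (edgeR, adjusted p = 0.0345 and 0.0297). Across both lists, the muscle covariate ended the call of the 3 higher genes, with Slc7a5, Sesn2 and Btd at 0.56, 0.24 and 0.39 (edgeR, adjusted p = 0.0547, 0.472 and 0.143). It also ended the call of 4 lower genes, with Slc43a2, Slc25a44, Mmaa and Hlcs at -0.47, -0.28, -0.45 and -0.28 (edgeR, adjusted p = 0.0744, 0.31, 0.118 and 0.293). Slc43a2 was not called with upper quartile scaling either (edgeR, adjusted p = 0.0517), nor Hlcs on the FPKM scales (limma, adjusted p = 0.0566 and 0.0633). Ppargc1a, Ppara, Etfa and Etfdh kept their calls with it, Etfa and Etfdh at -0.68 and -0.88 (edgeR, adjusted p = 0.0399 and 0.0212). Of the 6 fits that left out a library, Mmaa and Slc7a5 were called in 2, and Slc43a2, Slc25a44, Hlcs, Etfa, Etfdh, Btd and Sesn2 in 1.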

How the data were processed

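The 2 deposited tables hold raw counts per gene and FPKM values computed by the authors from the same reads. Per the labels, RNA came from a mirVana extraction, and strand-keeping libraries were prepared after ribosomal RNA removal (TruSeq Stranded Total RNA, Ribo-Zero Gold). The submitters' processing notes name Trimmomatic for trimming, HISAT2 for alignment and the build GRCm38.p6. The counting program and its strand setting are not given in the sources used here. Exons of 20 of 54 members found in GENCODE M21 overlap another gene, 18 of them on the other strand, among them Bcat1, Bcat2, Bckdha and Pcca, so reads of such partners may not be told apart.

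Deposited counts were tested with edgeR 4.0.16 (R 4.3.3): filterByExpr, TMM scaling, quasi-likelihood test of amputation against sham, and Benjamini-Hochberg adjustment over all 14561 genes tested (7317 were not tested), called at an adjusted p under 0.05. CPM values are scaled by TMM. Per-library log2 ratios add 0.5 CPM to each library and are set against the mean of the sham log2 values. Deposited FPKM values were used for levels and ratios and, in alternatives, on log2 scales with pseudocounts of 1 and 0.1 in limma 3.58.1; such fold changes understate low genes. Other alternatives used DESeq2 1.42.0, other scalings and filters, a replicate block, a muscle covariate, and leaving out each library. The labels name no pairing. For the block, replicate numbers were taken to pair the libraries, because every pair's correlation was over 0.1. Same-numbered libraries deviated together from their group means, with correlations over genes of 0.322, 0.178 and 0.467. Deviations cancel within a group, so library 3 differing alike from 1 and 2 in both groups would also give such values. The correlations therefore cannot show pairing, and calls gained with the block rest on an assumed pairing. The pairing of numbers 1 and 2 was not specific, since amputation 2 with sham 1 reached 0.290 and amputation 1 with sham 2 reached 0.164. One count was worth 0.0319 to 0.0418 CPM. The script was tested on simulated data. The closest pair of libraries, sham 1 and 2, still differed by more than sampling noise, with a chi-square per gene of 13.4.

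Members and lists were chosen with earlier results of these data known. Genes were named by role: all members except some that are counted but not reported here, with values in every library for the transaminases, the dehydrogenase subunits and the called or smallest-p genes of each other role.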

Additional observations from a re-analysis of the deposited data

How the results depend on the processing

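No called member changed direction in any of the 17 alternatives. With the replicate block, 35 members were lower and 2 higher, beside 17.3% and 21.7% of all genes. No call was lost there and 12 members gained one, and of the list genes 4 gained one. Upper quartile scaling (Aldh7a1 added) and no filter on low counts (Aox4 added) also gave 2 higher, beside 21.1% and 15.3% of all genes. With the muscle covariate, 10 were lower and 0 higher, beside 5.14% and 10.8% of all genes. The median log2 fold change of the members was then -0.41. Leaving out single libraries gave 3 to 37 lower and 0 to 3 higher, beside 3.06% to 29.9% and 7.93% to 28.6% of all genes. Of the 24 lower members, 18 kept their call in a single such fit, that without amputation 3; Pcca kept it in 3 and Abat in 2. Between 24 and 32 were lower in the other alternatives that kept all libraries, beside 9.68% to 19.2% of all genes. In those, Aacs alone among the called members lost its call, with DESeq2 size factors, upper quartile scaling or FPKM. 1 count was worth at most 0.0418 CPM, and 9 members had too few counts for a test. The causes of these changes were not tested.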
